A study of Rattus norvegicus with 12 samples.

Results

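The translation initiation and elongation factors are the proteins that start and extend protein synthesis on ribosomes. Members were taken from the rat gene symbols of the array platform: every symbol beginning Eif1 to Eif6 or Eef1 to Eef2 was kept, apart from the eIF2 kinases, the eIF4E-binding proteins and the eEF2 kinase. This gave 40 genes, read by 44 probes, out of 13337 named genes on the array. The rule uses no measured value.

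The study compared rat endothelial cells (EC) with and without exposure to tumour exosomes, and it profiled those exosomes beside the cells that released them. The EC came from aorta of BDX rats. They were starved overnight and then kept for 24 h in medium with 2% serum, with 10 µg/ml of exosomes from AS-Tspan8 cells, with the same dose of exosomes from AS cells, or with none. AS is a BDX rat pancreatic carcinoma line, and AS-Tspan8 is its derivative that stably expresses the tetraspanin Tspan8, so every tumour sample shares the AS background. Exosomes were taken from serum-free medium after the tumour cells had been starved for 36 h; the labels do not say whether the profiled tumour cells had been starved. Each EC group and each kind of exosome had 2 arrays, and the AS-Tspan8 cells and AS cells had 1 array each. The labels do not say that replicates came from separate cultures, so p-values measure the spread between these arrays, which may be technical, and their small number limits the precision.

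Initiation begins with eIF2, which brings the initiator tRNA to the small ribosomal subunit and is recharged by its exchange factor eIF2B. The large eIF3 complex and eIF1 and eIF1A hold the subunit open for scanning, the eIF4 proteins bind the cap and unwind the leader, and eIF5 promotes release of eIF2 at the start codon. In elongation, eEF1A delivers aminoacyl-tRNA, the eEF1B subunits recharge eEF1A, and eEF2 moves the ribosome along. In mammals, mRNAs of eEF1A, eEF2 and several other members of this machinery are known as TOP mRNAs, which begin with an oligopyrimidine tract and whose translation follows nutrient and mTOR signalling.

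The sequences around the transcription start are shown for the factors that were read on every array of the study, because those factors carry the exosome results given further on. Of the 11, Eef1a1, Eef1b2, Eef2, Eif2b4, Eif2s2, Eif3a, Eif3c and Eif5a matched the promoter table, and Eef1d, Eif3h and Eif4e3 are named only. Each line gives the 30 bases before the annotated RefSeq start and the 20 bases from it (build GRCr8), 5′ to 3′ on the gene's strand, with the longest unbroken run of C and T in capitals.
Eef1a1: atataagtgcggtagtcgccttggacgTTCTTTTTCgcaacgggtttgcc
Eef1b2: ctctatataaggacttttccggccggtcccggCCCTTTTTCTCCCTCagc
Eef2: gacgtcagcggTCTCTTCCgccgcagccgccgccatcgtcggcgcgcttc
Eif2b4: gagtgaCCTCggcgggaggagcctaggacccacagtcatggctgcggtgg
Eif2s2: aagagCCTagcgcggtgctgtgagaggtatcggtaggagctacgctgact
Eif3a: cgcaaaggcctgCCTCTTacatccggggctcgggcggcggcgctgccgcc
Eif3c: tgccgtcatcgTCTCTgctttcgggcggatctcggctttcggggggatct
Eif5a: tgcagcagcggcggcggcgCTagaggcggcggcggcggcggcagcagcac

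These windows lie at chr8:88225050-88225099 (minus strand) for Eef1a1, chr9:72074061-72074110 (plus) for Eef1b2, chr7:9189219-9189268 (minus) for Eef2 and chr6:30903209-30903258 (plus) for Eif2b4. Those of Eif2s2, Eif3a, Eif3c and Eif5a are chr3:163855551-163855600, chr1:269919006-269919055, chr1:190583048-190583097 and chr10:55143202-55143251, all on the minus strand. The run spans 9 bases in Eef1a1, starting 3 bases before the annotated start. In Eef1b2 it spans 15 bases, beginning at base 3 from the annotated start. In Eef2 it spans 8 bases, beginning 19 bases before the annotated start and ending upstream of it. Eif5a has no run longer than 2. Over the 34 member genes with an entry, 19 of 37 windows (51.4%) held a run of at least 7 bases of C or T, against 29.6% of all 33365 windows in the table. The same run on the opposite strand, seen as A and G on the printed strand, was in 6 of the 37 (16.2%) and in 30.7% of all windows. By exosome detection, 3 of 8 windows of factors read on all 4 exosome arrays held such a run of C or T, and 16 of 29 windows of the other factors did. A run in such a window describes letters near an annotated start and does not by itself mark a TOP mRNA.

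Whole-array values set the frame for what follows. Summed signal was 10383650 to 12705558 on the 6 EC arrays, 21955880 on the AS-Tspan8 cell array, 13714493 on the AS cell array and 2390577 to 2924133 on the 4 exosome arrays. Exosome arrays had 2104 to 3604 probes detected (detection p-value under 0.01), and the cell arrays had 8563 to 9389. Undetected probes had median signals of 62.9 to 80.4 on all 12 arrays, so signals near that level are background. Tspan8 read 2036 in AS-Tspan8 cells and 75.1, not detected, in AS cells, and it was detected on no exosome array. On the EC arrays, 6 of 9 endothelial markers were not detected, among them Cdh5, Vwf, Tek and Flt1. Egfl7, Clec14a and Ramp2 were detected on all 6, with Ramp2 at 891 to 2365. All 7 fibroblast markers were detected on all 6, with Dcn at 22432 to 26661. The EC are therefore named here by their label only. The second AS exosome array stands apart for the translation factors: 10 of the 11 members read on all exosome arrays were brighter on it than on the first, at a median ratio of 2.13, where the 848 named genes read on all 4 had a median ratio of 0.905. The main exosome results are given with and without it.

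Detection itself differed between cells and exosomes. All but a few factors were read in cells: 36 of 40 on both tumour cell arrays and 34 of 40 on all 6 EC arrays, against 48.6% and 45.4% of all named genes. In exosomes 11 of 40 (27.5%) were read on all 4 arrays, against 848 of 13337 named genes (6.36%), and 15 of 40 (37.5%) were read on none, against 77.8% of named genes. The 11 were the elongation factors Eef1a1, Eef1b2, Eef1d and Eef2, the eIF2 beta subunit Eif2s2, the eIF2B delta subunit Eif2b4, the eIF3 subunits Eif3a, Eif3c and Eif3h, the cap-binding family member Eif4e3 and Eif5a, the factor that carries hypusine. Eef1a2, the eEF1A form of muscle and neurons, and Eif2a, an initiator tRNA carrier outside the eIF2 trimer, were detected on no array of the study. Eif1ax was detected only on the first AS exosome array, at 124. Signal in the source cells went with detection in exosomes. Among genes with an AS cell signal of 5000 or more, 8 of 9 members and 259 of 426 named genes (60.8%) were read on all 4 exosome arrays. Between 1000 and 5000 the counts were 2 of 13 members and 200 of 1690 named genes (11.8%), and under 1000 they were 1 of 14 members and 302 of 4369 (6.91%). The part of cell signal in the higher exosome detection of the factors was not tested.

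**Figure D1:**
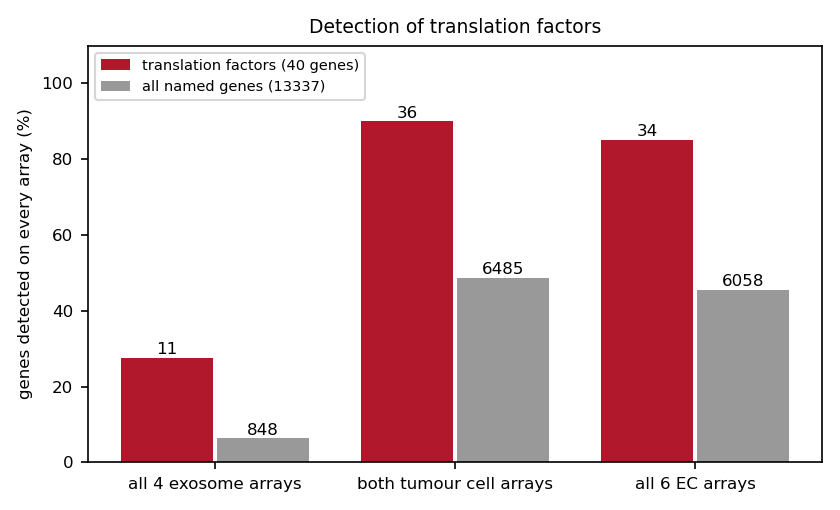
Percent of genes detected on every array of a sample kind (y axis), for the 40 translation factors (red) and all 13337 named genes (grey), with the number of genes above each bar. The factors exceed all named genes in each kind, and 11 of 40 were read on all 4 exosome arrays.

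Before any scaling, exosome signals lay below those of the source cells for 35 of the 36 factors detected in both tumour lines, on all 4 exosome arrays. The median factor read 2.66% of the AS-Tspan8 cell signal in AS-Tspan8 exosomes and 7.29% of the AS cell signal in AS exosomes (5.00% on the first AS array alone). Over the 6485 named genes detected in both lines these medians were 8.50% and 18.9%. Background was not subtracted here. Of the 40 factors, 14 and 13 were detected on the AS-Tspan8 exosome arrays and 15 and 24 on the AS exosome arrays. For the rest the exosome reading is background, so the share mostly reflects the cell signal. The part of cell signal in the gap to all named genes was not tested. In bulk RNA of this kind, fewer vesicles that carry a transcript and less of it in each cannot be told apart. The summed signal of the exosome arrays was lower as well, and its part in these shares was not tested.

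**Figure D2:**
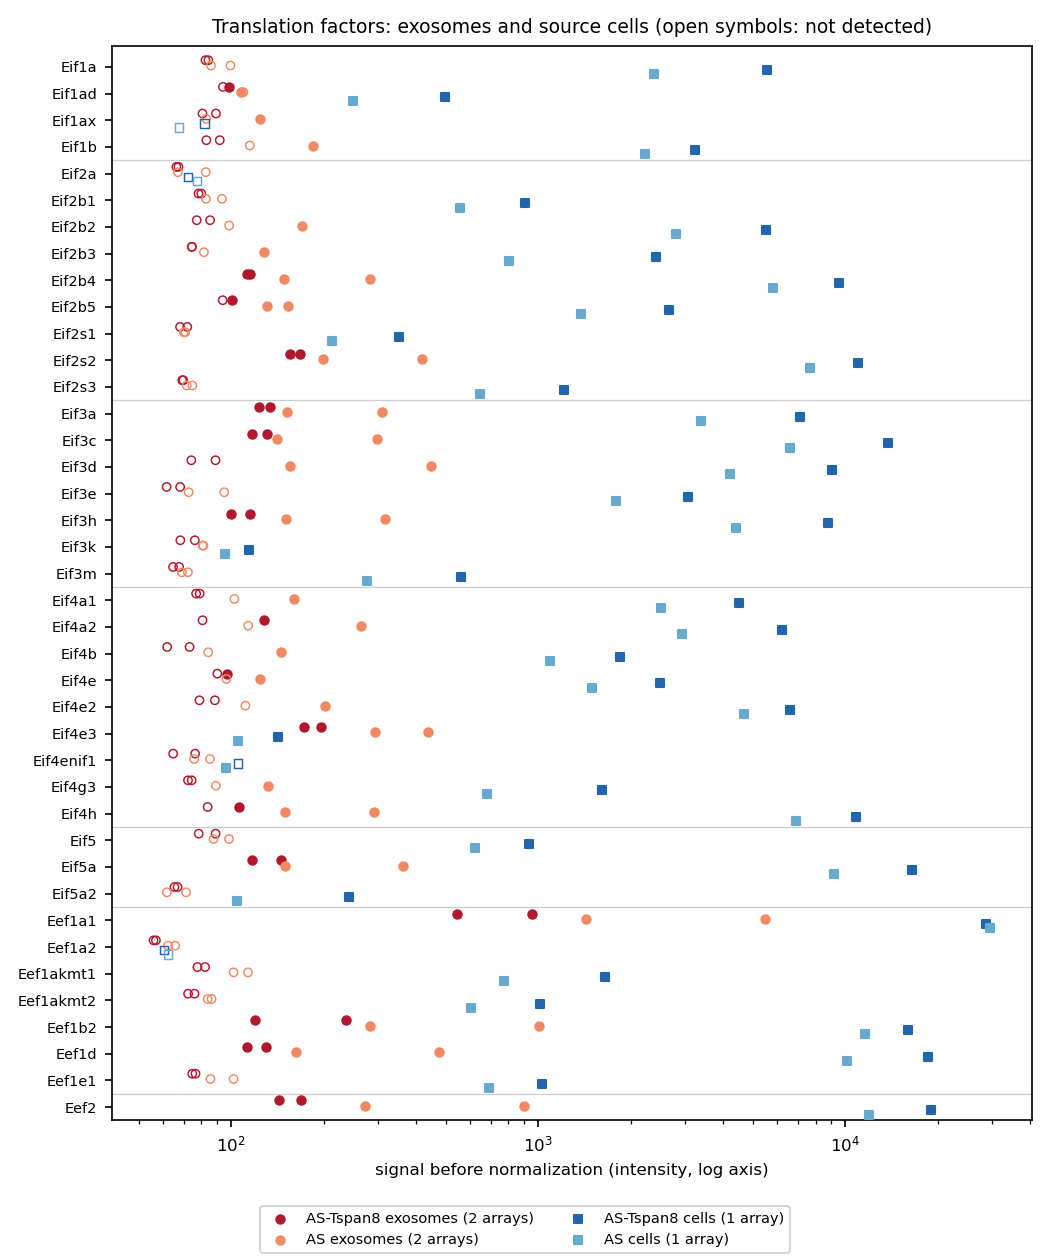
Signal before normalization (x axis, log scale) of the brightest probe of each of the 40 factors, by role from eIF1 at the top to eEF2. Circles are exosome arrays and squares are cell arrays, with open symbols for probes not detected; only Eif4e3 among the factors detected in both cell lines has its exosome signals above those of the cells.

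The elongation factors come first. Eef1a1, which delivers aminoacyl-tRNA to the ribosome, read 951 and 546 on the AS-Tspan8 exosome arrays and 1432 and 5483 on the AS exosome arrays, against 28584 in AS-Tspan8 cells and 29602 in AS cells. The exosome readings were 1.91% to 3.33% of the cell signal for AS-Tspan8 and 4.84% to 18.5% for AS, and the second AS array lay far above the other 3. Eef1b2, a nucleotide exchange factor of eEF1A, read 236 and 119 in AS-Tspan8 exosomes and 283 and 1007 in AS exosomes, against 16038 in AS-Tspan8 cells and 11613 in AS cells. Eef1d, another exchange subunit, read 130 and 112 in AS-Tspan8 exosomes and 163 and 474 in AS exosomes, against 18582 in AS-Tspan8 cells and 10125 in AS cells. Eef2, the translocase, read 169 and 143 in AS-Tspan8 exosomes and 274 and 898 in AS exosomes, against 18966 in AS-Tspan8 cells and 11946 in AS cells. All 4 were thus well under the cells on every exosome array, and all 4 were brightest in exosomes on the second AS array. Eef1e1, a scaffold protein of the multi-tRNA synthetase complex, and the eEF1A methyltransferases Eef1akmt1 and Eef1akmt2 were detected on no exosome array, with 603 to 1654 in the cells.

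Among the initiation factors, some subunits of a complex were read in exosomes and others were not. Eif2s2 read 167 and 155 in AS-Tspan8 exosomes and 199 and 419 in AS exosomes, against 10995 in AS-Tspan8 cells and 7657 in AS cells. Eif2b4 read 115 and 113 in AS-Tspan8 exosomes and 148 and 283 in AS exosomes, against 9555 in AS-Tspan8 cells and 5822 in AS cells. Both were detected throughout, far below the cells, and highest in exosomes on the second AS array. The alpha subunit Eif2s1, the target of the eIF2 kinases, read 68.2 to 72.0 on the 4 exosome arrays, none of them detected, against 353 in AS-Tspan8 cells and 214 in AS cells. The gamma subunit Eif2s3 was likewise undetected in exosomes at 69.3 to 74.8, against 1209 in AS-Tspan8 cells and 644 in AS cells. Among the eIF3 subunits, Eif3a read 134 and 123 in AS-Tspan8 exosomes and 152 and 309 in AS exosomes, against 7089 in AS-Tspan8 cells and 3380 in AS cells. Eif3c read 131 and 117 in AS-Tspan8 exosomes and 141 and 299 in AS exosomes, against 13749 in AS-Tspan8 cells and 6608 in AS cells. Eif3d, a subunit that can itself bind the cap, was detected on both AS exosome arrays at 156 and 449 and on neither AS-Tspan8 exosome array at 88.9 and 74.2, with 9044 in AS-Tspan8 cells and 4203 in AS cells. Eif3e, Eif3k and Eif3m were detected on no exosome array. The cap-binding protein Eif4e read 97.1 and 90.2 in AS-Tspan8 exosomes and 96.6 and 124 in AS exosomes, detected on 2 of the 4, against 2486 in AS-Tspan8 cells and 1493 in AS cells. Its helicase partners Eif4a1 and Eif4a2 were detected on 1 and 2 exosome arrays. Eif5a read 145 and 117 in AS-Tspan8 exosomes and 149 and 363 in AS exosomes, against 16519 in AS-Tspan8 cells and 9214 in AS cells.

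Eif4e3 ran the other way. This member of the cap-binding eIF4E family read 197 and 173 in AS-Tspan8 exosomes and 437 and 295 in AS exosomes, against 143 in AS-Tspan8 cells and 105 in AS cells. Both groups were detected on all their arrays, and every exosome reading was above its source cells, at 121% to 138% for AS-Tspan8 and 280% to 415% for AS. Of the 761 named genes detected on all 6 tumour arrays, 31 (4.07%) were above their source cells on all 4 exosome arrays. Among the 11 factors read on all exosome arrays, Eif4e3 alone was brighter on the first AS exosome array than on the second. In EC its 6 signals ran from 317 to 489.

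After background correction and quantile scaling, 36 factors passed the filter on dim probes (detected on at least 2 of the 6 tumour arrays) and were tested among 9434 features with limma. Exosomes were set against cells, with a term for the line. Of the 36, 2 were higher in exosomes where 16% of all features were called higher, and 12 were lower where 41% of all features were called lower. Of the 12, 7 were detected on no exosome array and entered the test through the cell arrays alone, where they are high, so their calls are no support for a difference. Some of the features counted in the shares entered in the same way. The median log2 difference was -1.57 for the factors and -1.22 for all features, and 33 of the 36 were lower. Without the second AS exosome array these medians were -1.92 and -1.33, and without the first -1.32 and -1.14. Without the second AS array 24 factors were called lower, among them factors detected on no remaining exosome array, whose calls support no difference. In that refit 73.9% of features were called in either direction, against 56.9% with all arrays. Without the first AS array 7 factors were called lower (43.1% of features called), and without either AS-Tspan8 exosome array 4 (37.8% without the first and 38.5% without the second). At an unadjusted p under 0.05 there were 17 factors and 65.9% of all features. Groups of exosomes and cells did not overlap for 24 of the 36, where 75.1% of all features did not.

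**Figure D3:**
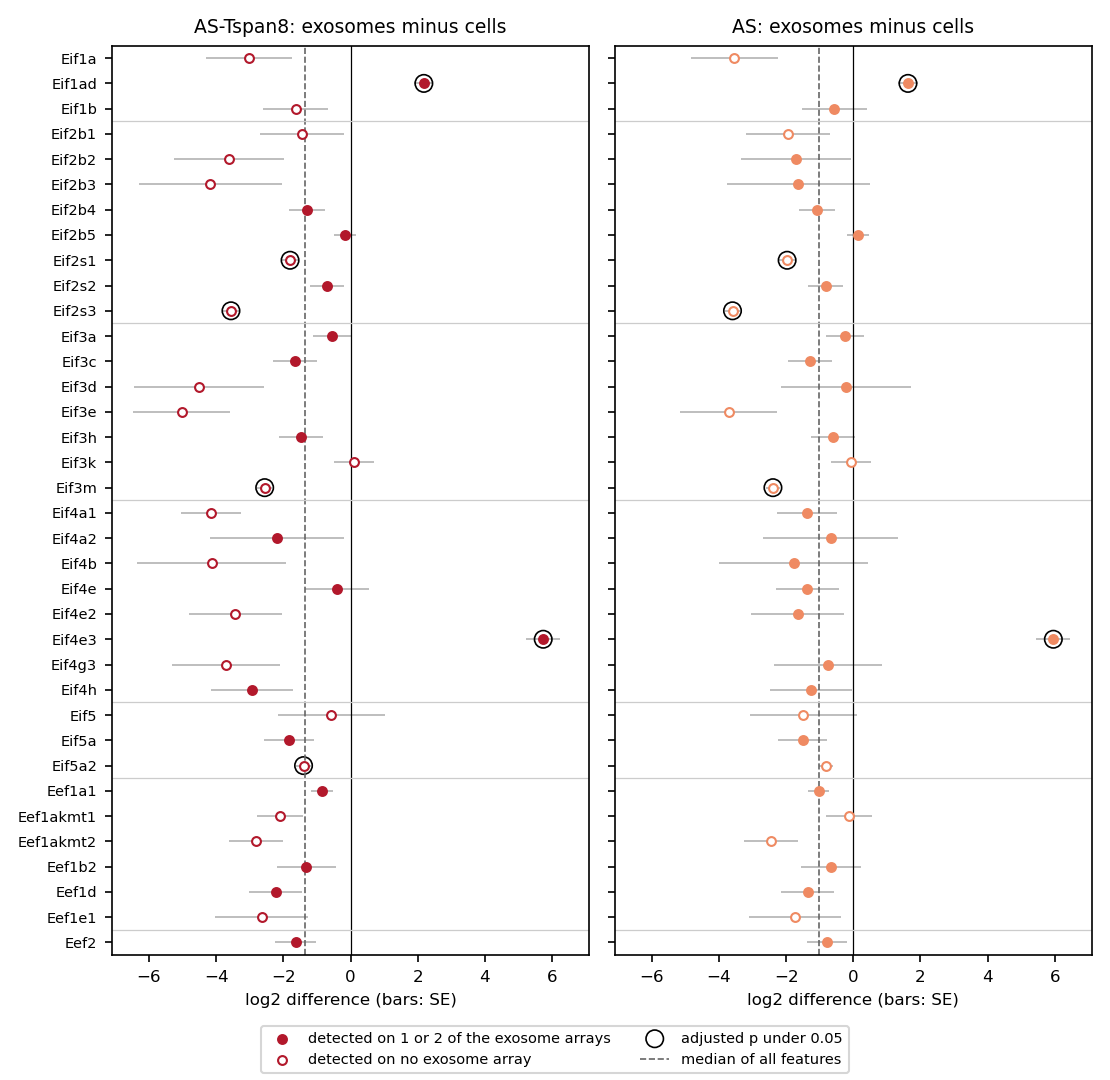
Log2 difference between exosomes and source cells after quantile scaling (x axis, bars are SE), for AS-Tspan8 on the left and AS on the right, with 1 point for each of the 36 factors tested. Filled points were detected on an exosome array of the line, black rings mark adjusted p under 0.05, and Eif4e3 and Eif1ad are the ringed points above 0.

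Of the 14 calls, 6 rest on factors read on every tumour array. Eif4e3 was higher in exosomes by 5.85 ± 0.32 (log2 with SE, limma adjusted p = 0.00137), 57.5-fold after scaling, while unscaled values gave a log2 difference of 1.55. Most of that size therefore came with the scaling, while the direction was the same in both. Lower were Eef1d by -1.79 ± 0.52 (adjusted p = 0.0427), Eif5a by -1.67 ± 0.46 (0.0371), Eif3c by -1.48 ± 0.41 (0.0395), Eif2b4 by -1.20 ± 0.34 (0.0409) and Eef1a1 by -0.94 ± 0.22 (0.0264). These 5 calls were lost without the first AS exosome array and without either AS-Tspan8 exosome array, and were kept without the second AS exosome array. Without the filter on dim probes, Eef1d, Eif5a, Eif3c and Eif2b4 also lost the call, while Eef1a1 kept it. Eef1a1 was also lost with the mean of its probes, at -0.65, with median scaling, at -0.42, and over probes detected on every array. Eef2 at -1.20 ± 0.43 (adjusted p = 0.0690), Eef1b2 at -0.99 ± 0.56 (0.183), Eif2s2 at -0.76 ± 0.32 (0.103), Eif3h at -1.03 ± 0.46 (0.111) and Eif3a at -0.39 ± 0.36 (0.378) did not pass. So, among the 11, only Eif4e3 was above the cells after scaling, and 5 of the 10 others passed as lower. Refitted over probes detected on every tumour array, 66.5% of 1175 features were called in either direction. The median was -1.03 for the factors and 0.94 for all features in that refit.

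Eif1ad, named for a domain it shares with eIF1A, was the other factor called higher, by 1.91 ± 0.24 (adjusted p = 0.00457). Its signal before scaling was 94.1 and 98.3 in AS-Tspan8 exosomes and 110 and 108 in AS exosomes, detected on 2 of these 4 arrays, against 496 in AS-Tspan8 cells and 249 in AS cells. The direction flipped without scaling between arrays, to -2.79, so its sign depends on the scaling.

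The other 7 factors called lower were Eif1a, Eif3e, Eif2s3, Eif3m, Eef1akmt2, Eif2s1 and Eif5a2, none of them detected in exosomes. They passed the filter through the cells, where they are high, so no p-value is given and their values are a description. For these the exosome value is only a limit, and the fold is the cell mean over the mean, across exosome arrays, of the higher of the lowest detected level and the probe's own level. Eif1a, the scanning factor eIF1A, was at least 2.73-fold lower in exosomes, with means of 7.08 in exosomes and 10.36 in cells (log2). Eif3e was at least 1.75-fold lower, with means of 5.36 in exosomes and 9.72 in cells. For the other 5 the mean cell level lay under the mean of those limits, and no fold can be given. With median scaling the differences of Eif3m, Eif2s1 and Eif5a2 turned positive, at 0.31, 0.97 and 2.07. The lowest detected level after quantile scaling was 8.16 to 9.36 on the exosome arrays and 5.06 to 5.09 on the tumour cell arrays.

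How the factors stood against other genes depended on the scaling, as the plot of medians by processing shows. Without scaling between arrays the factors had a median of -5.54 and all features -3.63, with 34 factors called lower and 91.0% of features called in either direction. These lower calls include factors detected on no exosome array, which support no difference. Scaled to the median of the probes detected on every array, the factors had -1.52 and all features 0.39, with 23 lower and 5 higher, and 71.2% of features called. Over probes detected on every tumour array, 11 factors had a median of -1.03 and 1175 features 0.94, with 6 lower and 1 higher, and 66.5% of features called. The median of the factors was below that of all features under each of the 7 other processings plotted, with the gap between -0.35 (mean of a gene's probes) and -1.97 (probes detected on every array). Leaving out 1 exosome array, the gap ran from -0.18 without the first AS array to -0.58 without the second, and in AS alone it was 0.14 without the first and -0.68 without the second.

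**Figure D4:**
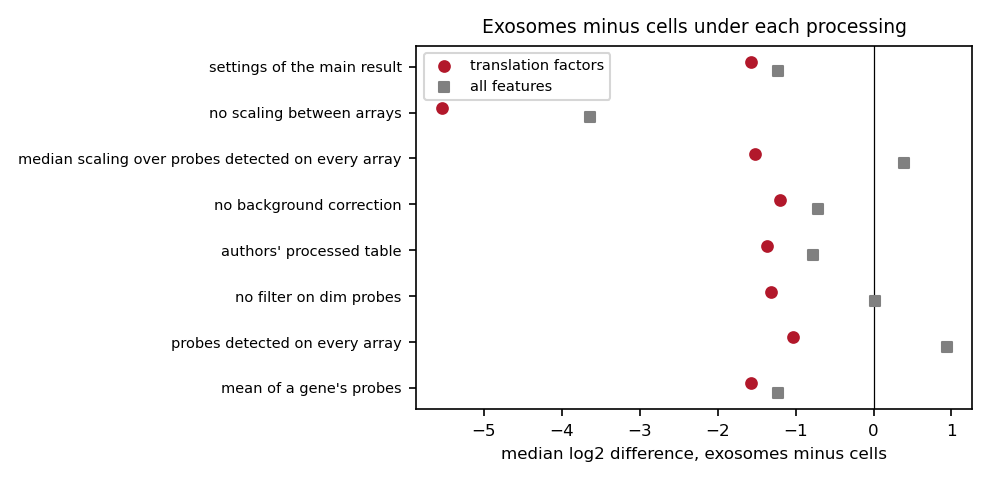
Median log2 difference, exosomes minus cells fitted with a term for the line (x axis), for the factors (red circles) and all features (grey squares) under the reported settings and 7 alternatives. The factors lie left of all features under each setting, between -5.54 without scaling and -1.03 over probes detected on every array.

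Each line has 1 cell array, so tests within a line assume that it varies like the exosome arrays, whose spread is the only one measured. Within AS-Tspan8 alone, 2 of 36 factors were called higher (10.9% of all features) and 4 lower (23.9%). Within AS alone, 2 were higher (7.3%) and 3 lower (18.9%). Eif4e3 was higher by 5.74 ± 0.50 in AS-Tspan8 exosomes (adjusted p = 0.0182) and by 5.95 ± 0.50 in AS exosomes (0.0221), and Eif1ad by 2.18 ± 0.29 in AS-Tspan8 exosomes and 1.63 ± 0.29 in AS exosomes, where unscaled values gave -3.47 and -2.10. The AS-Tspan8 call of Eif4e3 was lost without scaling between arrays. All of the lower calls (Eif2s3, Eif3m and Eif2s1 in both lines, and Eif5a2, an eIF5A form of restricted expression, in AS-Tspan8) are of factors not detected in exosomes, which passed the filter through the cells and support no difference. Median scaling turned Eif3m, Eif2s1 and Eif5a2 positive here too, at 0.58, 1.42 and 2.05 in AS-Tspan8, and at 0.035 and 0.52 for Eif3m and Eif2s1 in AS. Leaving out 1 exosome array of a line leaves 1 array on each side. Without the second AS exosome array the median in AS was -1.96 for the factors and -1.28 for all features. Without the first it was -0.52 for the factors and -0.66 for all features. In AS-Tspan8 the medians of the factors and of all features were -1.99 and -1.45 without the first exosome array. Without the second they were -1.61 and -1.28. With 1 array on each side, these refits cannot show whether the calls given above hold. The difference between the lines in the exosome-to-cell change was tested as an interaction, which rests on a single cell array in each line under the same assumption: no factor and 0% of features passed with limma, 0 factors and 3.23% of features had an unadjusted p under 0.05, and the lowest adjusted p of a factor was 0.955.

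AS-Tspan8 exosomes were also set directly against AS exosomes, which compares the vesicle RNA of the lines. Tspan8 and any other difference between the lines cannot be told apart here. No factor and 0% of features passed with limma (lowest adjusted p of a factor 0.744). At an unadjusted p under 0.05 there were 2 factors, Eif4a1 and Eef1akmt1, and 6.55% of features. Eef1akmt1 was detected on no exosome array and Eif4a1 on 1, so these p-values support no difference. Factors and features detected on no exosome array entered through the cells and count here with background readings. The factors had a median log2 difference of -0.53, with 27 of 36 lower, and all features -0.09. That shift went with the second AS exosome array: without it the median was 0.05 with 19 of 36 higher, and without the first AS array it was -1.04. Among the factors Eif3d had the lowest difference, at -3.99 ± 1.58, a bound of at least 2.87-fold lower in AS-Tspan8 exosomes that did not pass (adjusted p = 0.759). Eef1a1 differed by -0.54 ± 0.26, Eef2 by -0.85 ± 0.49 and Eif4h, an activator of the eIF4A helicase, by -1.77 ± 0.99, each with groups that did not overlap. Exosome groups of the lines did not overlap for 12 of 36 factors, where 40.1% of all features did not. Among these factors, Eef1akmt1 and Eif5a2 were detected on no exosome array. Eif4e3 stood at 11.11 in AS-Tspan8 exosomes and 11.36 in AS exosomes (log2 means).

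The tumour lines themselves, with 1 array each and so no replicate check, differed little in these factors after scaling. None of the 36 was past a 2-fold difference, where 2.71% of features were higher and 1.95% lower in AS-Tspan8 cells by that measure. Differences ran from -0.72 for Eef1a1 to 0.67 for Eif2b3, an eIF2B subunit, with a median of -0.02 for the factors and -0.02 for all features. Signals before scaling were higher in AS-Tspan8 cells for 35 of 36 factors, as for 96.5% of named genes. Without scaling the median difference was 0.85 for the factors and 0.84 for all features.

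In EC, exposure to tumour exosomes left no factor past the test. The 35 factors that passed the filter were tested among 9025 features, and limma called 0 factors and 0% of features in each of the 3 comparisons. At an unadjusted p under 0.05 there were 0 factors in each. Of all features, 1.29% reached it when EC given AS-Tspan8 exosomes were set against untreated EC, 0.687% when EC given AS exosomes were, and 0.565% between the exposed groups. The median differences of the factors in that order were 0.05, -0.01 and 0.06, and those of all features were 0.00, 0.00 and 0.00. A factor's range over all 6 EC arrays had a median of 0.46 on the log2 scale, against 0.51 for all features, from 0.17 for Eef1d to 0.97 for Eif3m. The comparisons with untreated EC share those 2 arrays. These tests and their SEs leave out the replicate pairing, so deviations shared by same-numbered arrays stay in the spread. With the replicate number as a block, 0% of features were called as well.

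**Figure D5:**
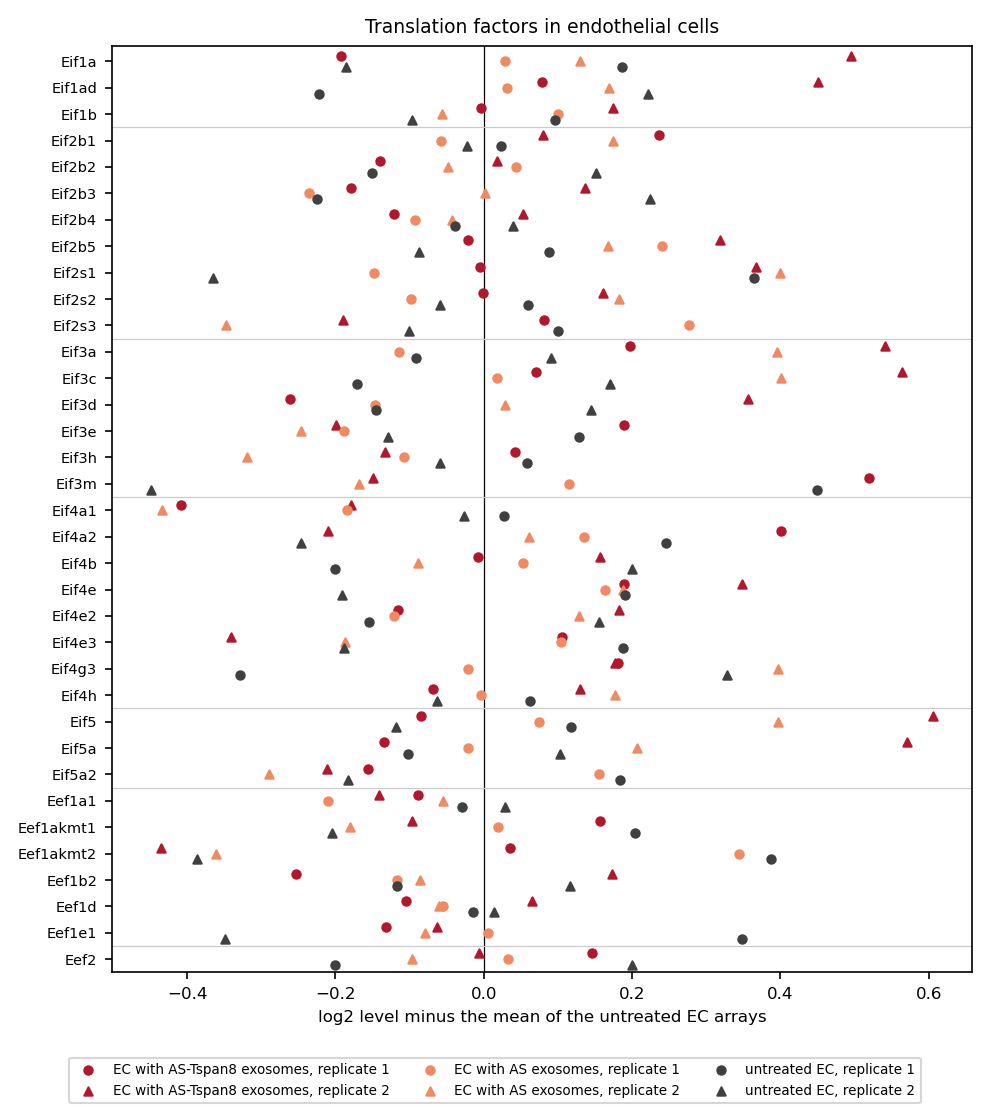
Log2 level of 35 factors on the 6 EC arrays (x axis, minus the mean of the untreated EC arrays), by role from eIF1 at the top to eEF2. Colours mark the groups and shapes the replicate number. Points of the 3 groups interleave for most factors, but for Eif4a1 and Eef1a1 (brightest probe) all exposed arrays lie below both untreated arrays. The range over 6 arrays is 0.17 for Eef1d and 0.97 for Eif3m.

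Core factors were bright in every EC group. Eef1a1 read 31669 and 27392 in EC with AS-Tspan8 exosomes, 29319 and 29071 in EC with AS exosomes, and 32113 and 31482 in untreated EC. Eef2 read 17747 and 14517 with AS-Tspan8 exosomes, 17774 and 13570 with AS exosomes, and 14721 and 18096 in untreated EC, so the groups overlapped. Eif5a read 3902 and 5492, 4650 and 4816, and 4112 and 4760 in the same order, overlapping again. Eif4e read 444 and 455 with AS-Tspan8 exosomes, 490 and 446 with AS exosomes, and 439 and 402 in untreated EC. Eef1a1 has 4 detected probes that do not agree on a direction: its brightest differed by -0.12 with AS-Tspan8 exosomes (0.014 with median scaling) and by -0.13 with AS exosomes on the log2 scale, and the other 3 ranged from -0.07 to 0.08 and from 0.00 to 0.05. Its remaining probe was detected on no array.

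The factors with the lowest unadjusted p among those whose groups did not overlap are given as values. Eif4a1, the helicase that unwinds the mRNA leader, read 729 and 775 in EC with AS-Tspan8 exosomes, 928 and 710 in EC with AS exosomes, and 977 and 1044 in untreated EC. It was below both untreated arrays on all 4 arrays of exposed EC, with log2 differences of -0.29 ± 0.18 for AS-Tspan8 exosomes and -0.31 ± 0.18 for AS exosomes (limma adjusted p = 1.00 in both). Eif3a differed by 0.37 ± 0.23 and Eif2b1, the eIF2B alpha subunit, by 0.16 ± 0.17 with AS-Tspan8 exosomes. With AS exosomes, Eif3h differed by -0.21 ± 0.17, Eif3e by -0.22 ± 0.20 and Eif2b5, the catalytic eIF2B subunit, by 0.20 ± 0.19. Between the exposed groups, AS-Tspan8 minus AS exosomes, Eif4e differed by 0.09 ± 0.19, and by -0.029 without scaling. Groups did not overlap for 4 of 35 factors with AS-Tspan8 exosomes (25.1% of features), 7 of 35 with AS exosomes (23.2%) and 1 of 35 between the exposed groups (17.7%).

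Read within each replicate number, which pairs the EC arrays, the factors gave these values. With AS-Tspan8 exosomes the median difference was -0.05 in pair 1 and 0.06 in pair 2, and 14 of 35 factors had the same sign in both, against 49.3% of all features. With AS exosomes it was -0.04 in pair 1 and 0.02 in pair 2, again with 14 of 35 of the same sign, against 48.7%. Taken by role after quantile scaling, medians ran from -0.07 for the eEF1 genes to 0.22 for Eif5, Eif5a and Eif5a2 with AS-Tspan8 exosomes, and from -0.07 to 0.09 for the same groups with AS exosomes. Between replicate arrays of a group the factors differed by a median of 0.20 to 0.30 in absolute terms.

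Other genes of the pathway give the setting. Of 15 listed kinases and inhibitors of translation 14 are on the array, and none of the 12 tested in EC passed in either comparison with untreated EC. In exosomes against cells, 3 of 13 tested were called higher (16% of all features) and 4 lower (41%). The higher ones were Eef2k, the kinase that inactivates eEF2, by 4.99 ± 0.52, Rps6kb2, an S6 kinase, by 4.52 ± 0.27, and Eif4ebp2, an eIF4E-binding repressor, which no exosome array detected and whose signals before scaling were below the source cells on all 4. Eef2k read 216 and 183 in AS-Tspan8 exosomes and 381 and 179 in AS exosomes, against 294 in AS-Tspan8 cells and 128 in AS cells, so before scaling it was below its source cells in AS-Tspan8 and above them in AS. Rps6kb2 read 131 and 120 in AS-Tspan8 exosomes and 165 and 151 in AS exosomes, against 160 in AS-Tspan8 cells and 118 in AS cells, so before scaling it was below its source cells in AS-Tspan8 and above them in AS. The lower ones, Eif2ak2, Mtor, Rps6kb1 and Ppp1r15b, were detected on no exosome array and entered through the cells alone. The 8 termination, recycling and poly(A) factors tested had none called higher, with 7 detected on no exosome array among the lower calls, and the 6 mitochondrial translation factors had none higher and 5 such calls; these entered through the cells alone and support no difference. Markers of other cells were read in exosomes too. None of the 7 fibroblast markers was detected in the tumour cells, but Col1a2 was detected on all 4 exosome arrays, at up to 372, and Dcn on 2, at up to 147, while the other 5 were detected on none. Of 9 endothelial markers 7 were detected on no exosome array, and Nos3, undetected in the tumour cells, was on 3, at up to 216. Their part in the exosome results was not tested.

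Some readings may include related sequences. RefSeq lists 20 pseudogene entries named after Eef1a1, 11 after Eif5, 10 after Eif4e, 8 after Eif4a1 and 5 after Eef2, and the array tables used here do not say whether a probe also matches these, so levels of these genes are uncertain to that extent.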

How the data were processed

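RNA from 6 EC arrays, 2 tumour cell arrays and 4 exosome arrays was labelled with Cy3 and read on rat Illumina BeadChips, per the labels' protocols. The deposited intensity of each probe is not normalized, and the authors' detection p-value stands beside it, per the file headers; how the scanner software summarised beads was not given in the sources used here. Processed intensities deposited by the authors were used only as an alternative. Platform symbols named 13793 of 22523 probes with 1 gene; Eef1g, Eif1, Eif4g1, Eif4g2 and Eif6 were not found by name.

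Intensities were background-corrected (normexp by detection p-value, offset 16) and quantile-scaled within EC and within tumour arrays separately, so levels are not set across these. Probes detected (p under 0.01) on at least 2 arrays of a family were tested with limma 3.58.1 in R 4.3.3, with Benjamini-Hochberg adjustment over all features and calls under 0.05. The procedure was tested on simulated data. A gene is its brightest probe. The members, lists and tests were chosen with earlier results of these data known. Named by rule were called factors detected throughout the higher group, otherwise those of lowest unadjusted p, plus core factors; Eif1ad and Eif5a2 were added after their values were seen, and core factors in EC are given as levels. Same-numbered EC arrays deviated together (correlations 0.4953, 0.3746 and 0.5549), while exosome arrays did not (-0.3343). EC arrays are also read as pairs, but the main EC tests leave the pairing out. Alternatives were left-out arrays, other scalings, background, filters, probe means and a replicate block.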

Additional observations from a re-analysis of the deposited data

How the results depend on the processing

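Factor counts in EC stayed at 0 under every alternative run, and with the replicate number as a block 0 factors were called in each EC comparison and between the exosome kinds; the crossed pairing of exosome arrays, chosen after seeing the data, also gave 0. Counts in exosomes moved, and the cause was not tested. The lower calls counted below can include factors detected on no exosome array. Those passed the filter through the cells and support no difference. Leaving out 1 array, lower calls in exosomes against cells ranged from 4 to 24 with the line as a term, from 4 to 15 in AS (higher calls 1), and were 0 in AS-Tspan8 (higher calls 0). In the refits with the line as a term, 37.8% to 73.9% of all features were called in either direction. Within AS, more of all features were called in the refit with 15 lower calls than in the refit with 4. Within AS-Tspan8 no feature was called. The refits within a line have 1 array on each side, so their counts cannot show whether a call holds. Without scaling there were 1 higher and 34 lower with the line as a term. Within AS there were 1 and 35, within AS-Tspan8 0 and 35, and in the interaction 9 lower. Of all features, 91.0%, 88.7%, 91.8% and 48.2% were called in these 4 comparisons. In AS-Tspan8 cells against AS cells 12 were higher, with medians of 0.85 for the factors and 0.84 for all features. The share of all features past that limit is not given here. Median scaling gave 5 higher and 23 lower with the line as a term, 21 lower in AS, 5 higher and 20 lower in AS-Tspan8, and 1 lower between the exosome kinds, with 71.2%, 60.0%, 66.1% and 3.22% of features called. Over probes detected on every array there were 1 higher and 6 lower with the line as a term, 1 higher and 0 lower in AS, and 1 higher in AS-Tspan8. Of all features, 66.5%, 43.7% and 59.2% were called in that order. Without a filter there were 7 lower with the line as a term (24.1% of features called) and 1 higher in AS (11.4%). Without background correction, and in the authors' deposited table, there was 1 higher in AS and 2 lower in AS-Tspan8. Median scaling reversed Eif3m (0.31 with the line as a term, 0.035 in AS, 0.58 in AS-Tspan8), Eif2s1 (0.97, 0.52 and 1.42), Eif5a2 (2.07 with the line as a term, 2.05 in AS-Tspan8) and Eef1a1 in EC with AS-Tspan8 exosomes (0.014). No scaling reversed Eif1ad (-2.79, -2.10 in AS, -3.47 in AS-Tspan8), Eif4e between exposed EC groups (-0.029), and Eif2s1 (-0.067) and Eif4e (-0.36) between the exosome kinds. With 1 array left out, AS exosomes against cells ran from -0.76 to 0.29 for Eif3a and from -1.61 to 0.25 for Eif4a2. Between the exosome kinds the ranges were -1.39 to 0.085 for Eef1d, -0.62 to 0.43 for Eif3a, -3.06 to 0.48 for Eif4a2, -0.85 to 0.50 for Eif5a and -0.076 to 1.64 for Eif4e. Over all single-factor values under an alternative, 644 kept direction and call, 58 gained the call, 56 lost it, 10 untested ones moved and 23 reversed. Dim exosome signals, near background for most factors, limit what can be measured.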
